A study of Mus musculus with 16 samples.

Results

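The expression of 10 genes of iron, zinc and metallothionein biology was examined in bone marrow-derived DCs (BMDCs): the metallothioneins *Mt1*, *Mt2* and *Mt3*, the metal importers *Slc39a14*, *Slc11a1* and *Slc11a2*, the zinc exporter *Slc30a1*, the iron exporter *Slc40a1*, the transferrin receptor *Tfrc* and the ferritin heavy chain *Fth1*. They were taken by symbol from a table of 23356 genes, and each symbol was found. The BMDCs were grown for 6 days with 10 ng/ml GM-CSF and 10 ng/ml IL-4 from the bone marrow of C57BL/6-background mice of 4 genotypes, namely wild-type, *Tmem173*-/- (without STING, the receptor of the bacterial dinucleotide c-di-GMP), *Irf1*-/- and the double knockout *Irf3/7*-/-. Cells of each genotype were left untreated or received c-di-GMP for 18 h, at a dose given by the labels as 25 μg/ml and by the study's figure legends as a higher one. Each of the 8 conditions has 2 samples (16 in all), and nothing says whether these came from separate cultures. The deletions were present in the whole animal and thus also in the cells from which the DCs grew. Such cultures are mixed, and in a bulk sample fewer cells of a type and less RNA per cell cannot be told apart.

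Metallothioneins are small cysteine-rich proteins that bind zinc and copper, and their genes are classical targets of the zinc-sensing transcription factor MTF1, as is the zinc exporter gene *Slc30a1*. Iron enters most cells as transferrin bound to the transferrin receptor, leaves the endosome through DMT1 (*Slc11a2*), is stored in ferritin and leaves the cell through ferroportin (*Slc40a1*), while NRAMP1 (*Slc11a1*) moves divalent metals out of the phagosome of macrophages and related cells. Withholding iron and zinc from microbes by these routes is a known part of innate immunity, and C57BL/6 mice carry a loss-of-function allele of *Slc11a1*, whose transcript is nevertheless measured here.

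Iron also acts on several of these transcripts directly. Iron regulatory proteins bind hairpins called iron-responsive elements (IREs) when iron is scarce, which blocks translation when the hairpin lies in the 5′ UTR and protects the transcript from decay when it lies in the 3′ UTR. The hairpins are shown because, in the genes where they were found, their place bears on whether iron acts on the RNA level or on translation. A search of annotated UTRs (GENCODE, GRCm38) for an unpaired C, 5 bases, the loop CAGTGN and 5 bases that pair with the first 5 (17 bases in all, G-T pairs allowed) found such a hairpin in 3 of the 10 genes and in 119 of 21102 genes (0.564%). A hairpin with a bulge or a mismatch in these 5 pairs would be missed. The search thus does not show that a gene without a match, such as *Slc11a2*, has no IRE. The loop is in capitals. *Fth1* has a hairpin in its 5′ UTR at chr19:9982738-9982754 (plus strand), *Slc40a1* in its 5′ UTR at chr1:45925471-45925487 (minus strand), and *Tfrc* has 4 in its 3′ UTR on the plus strand, at chr16:32631225-32631241, chr16:32631604-32631620, chr16:32631669-32631685 and chr16:32631716-32631732.
Fth1: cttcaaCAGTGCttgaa
Slc40a1: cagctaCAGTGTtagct
Tfrc hairpin 1: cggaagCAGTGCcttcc
Tfrc hairpin 2: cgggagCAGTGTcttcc
Tfrc hairpin 3: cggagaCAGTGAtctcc
Tfrc hairpin 4: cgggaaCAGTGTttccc

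The stretches before the start sites of the metallothionein genes and of *Slc30a1* are shown because MTF1 binds short metal response elements in such stretches and because *Mt1*, *Mt2* and *Mt3* lie next to each other on chromosome 8 yet differed in their response. Each is the 250 bases before a transcript start that RefSeq lists (GRCm38.p6), on the plus strand. The RefSeq gene itself begins farther upstream for *Mt1*, at position 94178883, and for *Slc30a1*, at position 191906697, so that these windows include transcribed sequence. Capitals mark the core of the metal response element, searched as TGCACNC or TGCGCNC on both strands. *Mt1* (chr8:94178839-94179088) has 1 match, *Mt2* (chr8:94172368-94172617) has 3, *Mt3* (chr8:94152357-94152606) has 0 and *Slc30a1* (chr1:191906531-191906780) has 1.
Mt1: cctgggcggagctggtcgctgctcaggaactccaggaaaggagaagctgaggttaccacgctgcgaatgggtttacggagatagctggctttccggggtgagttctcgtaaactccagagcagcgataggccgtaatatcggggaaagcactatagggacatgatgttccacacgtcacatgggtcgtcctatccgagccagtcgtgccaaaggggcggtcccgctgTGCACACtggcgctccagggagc
Mt2: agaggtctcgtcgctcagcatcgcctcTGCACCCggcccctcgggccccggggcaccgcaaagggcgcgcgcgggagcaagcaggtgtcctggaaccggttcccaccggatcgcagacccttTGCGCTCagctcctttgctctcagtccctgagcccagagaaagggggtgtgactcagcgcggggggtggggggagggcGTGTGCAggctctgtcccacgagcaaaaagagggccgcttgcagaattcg
Mt3: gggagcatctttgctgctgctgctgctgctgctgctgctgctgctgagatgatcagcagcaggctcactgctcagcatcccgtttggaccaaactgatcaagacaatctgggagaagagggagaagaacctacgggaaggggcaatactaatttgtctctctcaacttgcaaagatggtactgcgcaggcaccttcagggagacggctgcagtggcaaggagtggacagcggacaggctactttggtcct
Slc30a1: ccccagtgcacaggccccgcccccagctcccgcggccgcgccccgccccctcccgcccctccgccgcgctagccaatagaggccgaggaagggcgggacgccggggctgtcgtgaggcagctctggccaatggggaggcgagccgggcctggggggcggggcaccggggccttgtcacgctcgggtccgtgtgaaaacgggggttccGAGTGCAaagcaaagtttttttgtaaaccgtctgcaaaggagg

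Of 32841 RefSeq windows of this length, 21.4% hold at least 1 such core and 5.18% at least 2. Among the other members with a window, *Tfrc* has 2 overlapping matches in one of its windows, and *Slc11a1* and *Fth1* have 0. The core of the antioxidant response element, TGACNNNGC, is in 10.2% of all windows and occurs once each in *Mt2* and *Slc30a1*, with no overlap with the capitals. The interferon-stimulated response element core GAAANNGAA (7.13% of windows) and the gamma-activated site TTCNNNGAA (7.02%) occur in no member's window. GENCODE also lists starts downstream of those used here, for *Mt1* at 122 and 152 bases, for *Mt2* at 46 and 242 bases, for *Mt3* at 139 bases and for *Slc30a1* at 475 bases, and the windows do not reach the sequence in between.

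The deposited table gives 1 FPKM (fragments per kilobase of transcript, corrected for library size) per condition, into which the authors' program combined the samples, together with confidence bounds. No spread between replicates can be computed, so no p-value is given, and the number of reads behind a value is unknown. Genes were called where FPKM differed more than 2-fold after 0.1 was added to both values, where the authors' intervals of the conditions compared were apart, and where at least 1 FPKM was present in one of them. All log2 values below are differences of log2(FPKM + 0.1). For *Mt1* and *Mt2* the FPKM lay above its own interval in all 8 conditions, as it did for between 64 and 95 genes with at least 1 FPKM per condition. Replacing the FPKM by the midpoint of the interval changed no call of the 10 genes, an alternative chosen after the data were seen. *Mt1* and *Mt2* are similar in sequence and *Fth1* has near-identical processed copies. No source used here says how reads shared between copies were assigned.

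The targeted genes were examined first. *Tmem173* was at 8.97 and 7.49 FPKM in untreated and treated *Tmem173*-/- BMDCs and between 77.0 and 118 FPKM elsewhere, which bears on the genotype, while the treated column of this genotype was read as treated from its name alone. *Irf7* was at 1.07 and 4.97 FPKM in *Irf3/7*-/- BMDCs against 15.2 and 687 FPKM in wild-type. *Irf1* was at 25.9 and 116 FPKM in *Irf1*-/- BMDCs against 149 and 245 FPKM in wild-type. The interval of treated *Irf1*-/- BMDCs (82.8 to 149) overlapped that of untreated wild-type (113 to 185). *Irf1* was also low in *Tmem173*-/- BMDCs, at 24.1 and 23.3 FPKM, so a low level was not particular to *Irf1*-/-. *Irf3* went against the label in treated *Irf3/7*-/- BMDCs, with 20.2 FPKM against 7.74 untreated, and 19.9 and 15.8 FPKM in untreated and treated wild-type. Transcripts outside a deleted exon can still be counted, and FPKM per gene does not separate them. All 7 DC genes examined (*Itgax*, *H2-Aa*, *H2-Ab1*, *Cd74*, *Flt3*, *Zbtb46*, *Ccr7*) were above 1 FPKM in each condition. *H2-Aa* and *H2-Ab1* were called lower in *Irf1*-/- than in wild-type BMDCs (4.78% of all genes called untreated, 7.56% treated). Their log2 differences were -1.50 and -1.23 untreated and -1.62 and -1.43 treated. Without a call, *Itgax*, *Flt3* and *Zbtb46* were higher there and *Cd74* and *Ccr7* lower. *Ccr7* was called higher with c-di-GMP in wild-type (2.25), *Irf1*-/- (2.12) and *Irf3/7*-/- BMDCs (2.82). In *Tmem173*-/- BMDCs it was below wild-type (-1.03 untreated, -3.46 treated). Against treated wild-type, *Itgax* was called higher in treated *Tmem173*-/- (1.29) and *Flt3* in treated *Irf3/7*-/- BMDCs (1.17). Of 6 neutrophil genes in the table (7 listed), 5 were called higher in *Tmem173*-/- than in wild-type BMDCs without and with treatment (11.0% and 26.3% of all genes called). The 6 summed to 19829 and 14396 FPKM (untreated and treated), mostly *S100a8* and *S100a9*, against 1404 to 3999.5 FPKM in the other conditions. *Mpo* was also higher than wild-type in *Irf1*-/- (2.70 untreated, 2.08 treated) and *Irf3/7*-/- BMDCs (2.13 and 2.20). *Camp* was lower in *Irf1*-/- BMDCs (-1.39 and -3.19), and *Ngp* was lower in treated *Irf1*-/- (-1.28) and treated *Irf3/7*-/- BMDCs (-1.07). The erythroid genes *Hba-a1*, *Alas2* and *Klf1* were below 1 FPKM in all 8 conditions, and *Gata1* was at most 2.48 FPKM. *Hbb-b1* rose with c-di-GMP from 9.99 to 35.7 FPKM in wild-type, from 9.18 to 81.3 FPKM in *Irf1*-/- and from 5.51 to 72.0 FPKM in *Irf3/7*-/- BMDCs, and was at 1.33 and 1.44 FPKM in *Tmem173*-/- BMDCs. *Gata1* was called higher in *Irf3/7*-/- BMDCs, from 1.14 to 2.48 FPKM. The part of erythroid transcripts in the results below was not tested.

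c-di-GMP changed 9 of the 10 genes in wild-type BMDCs, against 20.5% of 11201 genes tested. *Mt1*, *Mt2*, *Slc30a1*, *Slc40a1*, *Slc11a1* and *Fth1* rose, and *Mt3*, *Slc39a14* and *Tfrc* fell. *Slc11a2* alone was not called. Their median log2 change was 1.20, beside 0.00 over all genes tested. In *Tmem173*-/- BMDCs 0 of the 10 genes were called, where 0.0552% of all genes were.

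**Figure D1:**
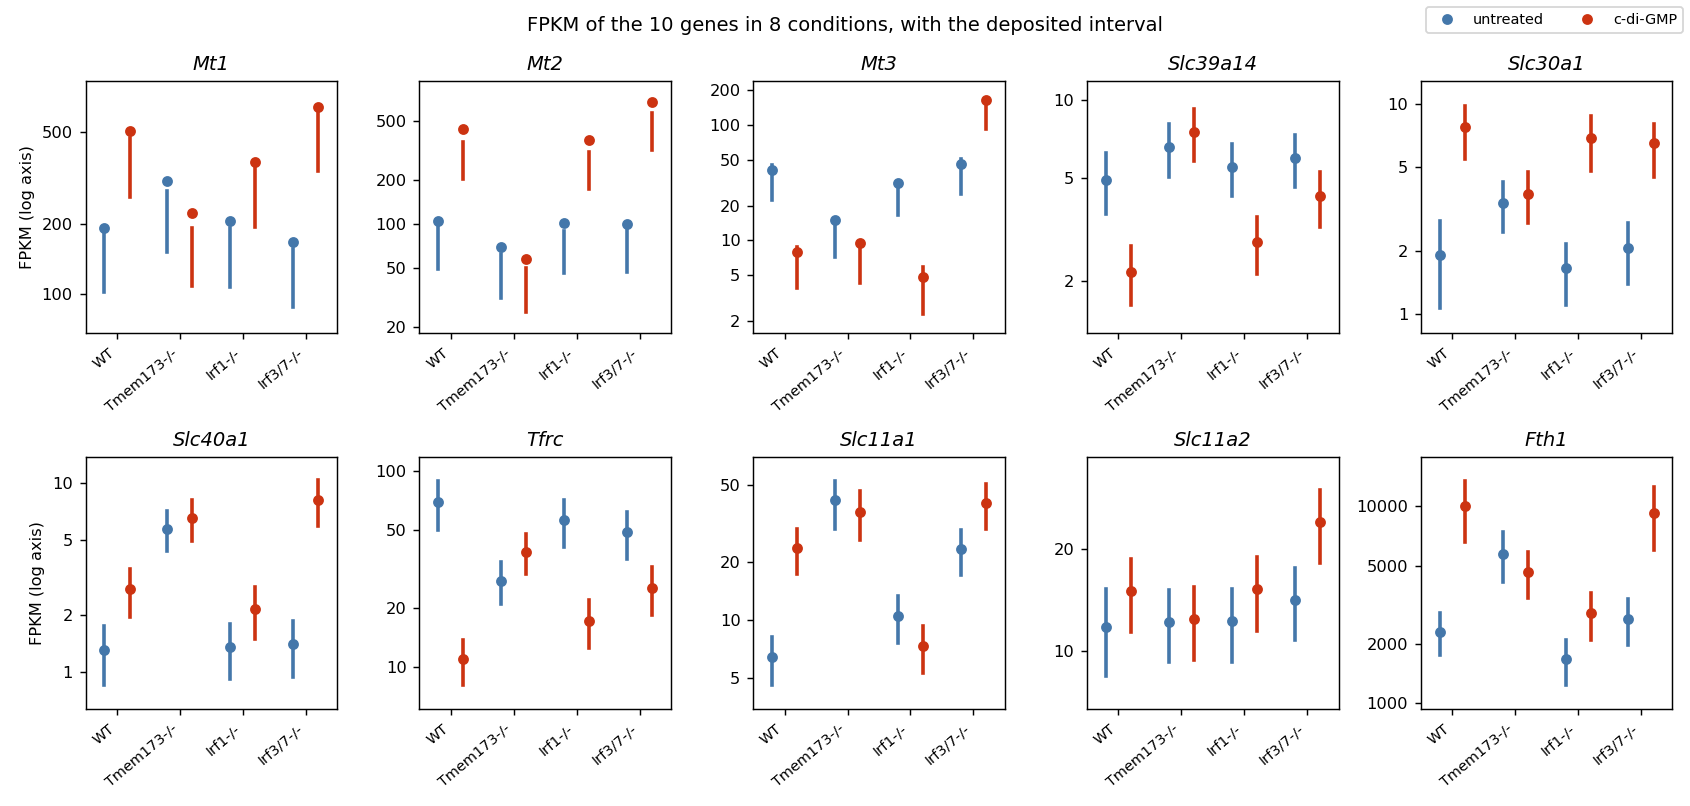
FPKM (log axis) of the 10 genes in BMDCs of 4 genotypes, untreated (blue) and treated with c-di-GMP (red); points are the deposited FPKM and lines the authors' interval, without replicates. *Tfrc* runs from 69.3 FPKM in untreated to 10.9 FPKM in treated wild-type BMDCs, the points of *Mt1* and *Mt2* lie above their intervals, and treated *Irf3/7*-/- BMDCs stand out for *Mt3* at 164 FPKM.

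*Mt1* and *Mt2*, the 2 widely expressed metallothioneins, both rose with treatment in wild-type and *Irf3/7*-/- BMDCs. In wild-type BMDCs *Mt1* (chr8:94179089-94180327 in the deposited table, whose positions match GRCm38) was at 192 FPKM untreated (interval 102 to 183) and at 504 FPKM treated (260 to 467), a log2 change of 1.39. The *Irf3/7*-/- values were 167 FPKM untreated (87.7 to 155) and 636 FPKM treated (337 to 605), a change of 1.93. *Irf1*-/- BMDCs stood at 206 and 369 FPKM, where the intervals were apart but the difference of 0.84 was below the threshold. In *Tmem173*-/- BMDCs *Mt1* stood at 306 FPKM untreated and 223 FPKM treated, with overlapping intervals. In the order of the 8 conditions each *Mt1* interval overlapped the next, so only conditions farther apart in the order were separated.

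*Mt2* (chr8:94172618-94173567) was at 105 FPKM untreated (49.3 to 95.1) and 443 FPKM treated (203 to 364) in wild-type BMDCs, a log2 change of 2.07. Without IRF1 it rose from 102 to 372 FPKM (log2 change 1.87) and without IRF3 and IRF7 from 100.3 to 680.1 FPKM (2.76). The treated levels of these 3 genotypes formed a group apart from the other 5 conditions, since the lowest of them, 372 FPKM (174 to 307), did not reach down to the next, untreated wild-type. *Mt2* in *Tmem173*-/- BMDCs stood at 69.7 and 58.2 FPKM, the 2 lowest values. Treated *Tmem173*-/- BMDCs thus had 7.61-fold less *Mt2* than treated wild-type, a log2 difference of -2.93, and 2.26-fold less *Mt1* (-1.18).

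*Mt3*, a metallothionein best known from the brain, went the other way. In wild-type BMDCs its untreated level of 40.5 FPKM (22.4 to 45.3) fell to 7.87 FPKM (3.84 to 8.80), a log2 change of -2.35, and in *Irf1*-/- BMDCs it fell from 31.2 to 4.86 FPKM (-2.66). *Mt3* (chr8:94152607-94154148) rose instead in *Irf3/7*-/- BMDCs, where it was at 45.7 FPKM untreated (25.1 to 50.3) and 164 FPKM treated (92.3 to 164), a log2 change of 1.84. Treated *Irf3/7*-/- BMDCs had 20.6-fold more *Mt3* than treated wild-type (log2 difference 4.36), and their interval was apart from that of every other condition. *Mt3* was at 14.95 FPKM in untreated *Tmem173*-/- BMDCs, below untreated wild-type (log2 difference -1.43), and at 9.41 FPKM in treated ones. Over the 8 conditions *Mt3* had the widest range of the 10 genes, 33.7-fold from lowest to highest, followed by *Mt2* with 11.7-fold. The T and NK cell list, 6 genes of 6, was also highest in treated *Irf3/7*-/- BMDCs, with a summed level of 121 FPKM against 71.3 untreated and 33.2 in treated wild-type. With c-di-GMP in *Irf3/7*-/- BMDCs, 0 of the 4 genes that passed the filter were called higher and 1 lower (17.9% of all genes called). Against treated wild-type 3 of 3 were called higher (7.30% of all genes called). The part of this list in the *Mt3* result was not tested. Of that list, 4 genes of 4 that passed the filter untreated and 3 of 3 treated were lower than wild-type in *Tmem173*-/- BMDCs (11.0% and 26.3% of all genes called). The same counts held in *Irf1*-/- BMDCs (4.78% and 7.56%). However, 0 of the 6 genes reached 1 FPKM in *Tmem173*-/- BMDCs, and 2 untreated and 1 treated did in *Irf1*-/- BMDCs. Genes below 1 FPKM in a knockout passed the filter only through their wild-type level, so a call could only be lower. *Cd4* of that list was below 1 FPKM in wild-type BMDCs. *Mt4*, the last gene of the cluster, was between 0 and 0.314 FPKM and was not tested.

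The genes around the cluster did not share these changes. *Mt2* starts 6471 bases and *Mt3* 26482 bases before *Mt1*. Of the 10 genes within 200 kb of the *Mt1* start, 7 passed the filter, and *Nudt21*, *Ogfod1* and *Bbs2* were not called with c-di-GMP in any genotype. *Nup93*, a nuclear pore gene, was called lower in *Irf3/7*-/- BMDCs (log2 change -1.04) and in no other genotype.

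**Figure D2:**
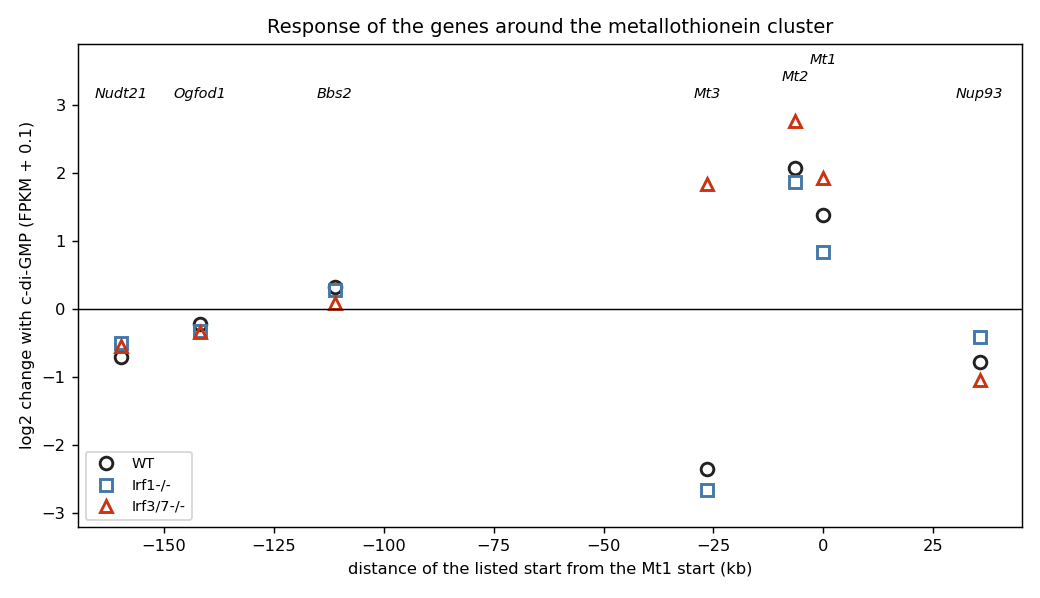
Log2 change with c-di-GMP of the genes within 200 kb of *Mt1* that passed the filter, against the distance of each listed start from the *Mt1* start in kb; circles are wild-type, squares *Irf1*-/- and triangles *Irf3/7*-/- BMDCs. *Mt3* is at -2.35 and -2.66 in wild-type and *Irf1*-/- but at 1.84 in *Irf3/7*-/-, while *Mt1* and *Mt2* lie above 0 in the 3 genotypes shown.

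*Slc30a1* (chr1:191894072-191913247), which exports zinc from the cytosol, was induced in the same 3 genotypes as *Mt2*. Wild-type BMDCs had 1.92 FPKM untreated (1.07 to 2.79) and 7.76 FPKM treated (5.49 to 9.80), a log2 change of 1.96. The change was 1.99 in *Irf1*-/- BMDCs (1.66 to 6.87 FPKM) and 1.61 in *Irf3/7*-/- BMDCs (2.07 to 6.51 FPKM). *Tmem173*-/- BMDCs stood at 3.37 FPKM untreated (2.46 to 4.28) and 3.73 FPKM treated (2.71 to 4.75), between the untreated and the treated values of the other genotypes. The intervals did not set them apart. The untreated one overlapped that of untreated *Irf3/7*-/- BMDCs (1.39 to 2.72), and the treated one that of treated *Irf3/7*-/- BMDCs (4.52 to 8.06). Treated *Tmem173*-/- BMDCs were 2.05-fold below treated wild-type (log2 difference -1.04). The listed span of *Slc30a1* contains *1700034H15Rik*, which was at most 0.109 FPKM.

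*Slc39a14* (chr14:70303467-70351424), a cell-surface importer of zinc and of iron that is not bound to transferrin, fell in wild-type BMDCs, with 4.93 FPKM untreated (3.63 to 6.23) and 2.17 FPKM treated (1.61 to 2.73), a log2 change of -1.15. *Irf1*-/- BMDCs were at 5.52 and 2.83 FPKM, with intervals apart and a difference of -0.94 that missed the threshold. It was at 5.99 and 4.25 FPKM in *Irf3/7*-/- BMDCs and at 6.59 and 7.55 FPKM in *Tmem173*-/- BMDCs, with overlapping intervals in both. Treated *Tmem173*-/- BMDCs therefore had 3.37-fold more *Slc39a14* than treated wild-type (log2 difference 1.75). In wild-type the call did not survive a pseudocount of 1 FPKM (-0.90) or a minimum of 5 FPKM.

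*Tfrc* (chr16:32608896-32632794), the receptor through which cells take up transferrin-bound iron and the gene with the 4 hairpins in its 3′ UTR, fell most among the 10 genes in wild-type BMDCs. It was at 69.3 FPKM untreated (49.7 to 88.7) and 10.9 FPKM treated (8.10 to 13.8), a 6.29-fold drop and a log2 change of -2.65. It also fell in *Irf1*-/- BMDCs, from 56.2 to 17.2 FPKM (-1.70). *Irf3/7*-/- BMDCs were at 48.9 FPKM untreated and 25.3 FPKM treated, where the intervals were apart and the difference of -0.95 missed the threshold. *Tmem173*-/- BMDCs, with 27.4 FPKM untreated and 38.6 FPKM treated, were below wild-type without treatment (log2 difference -1.33) and above it with treatment (1.81). *Tfrc* is known to be high in dividing cells. Of 5 genes of proliferating cells, 4 fell with c-di-GMP in wild-type (20.5% of all genes called) and 4 in *Irf1*-/- BMDCs (17.5%), in both all but *Mki67*. In *Irf3/7*-/- BMDCs 2 fell (17.9%) and in *Tmem173*-/- BMDCs 0 (0.0552%). Against treated wild-type, where *Tfrc* was higher in both knockouts, 4 of the 5 were higher in treated *Tmem173*-/- BMDCs (26.3%). In treated *Irf3/7*-/- BMDCs 0 were called (7.30%). Between untreated *Tmem173*-/- and wild-type BMDCs, where *Tfrc* was lower, 0 of the 5 were called (11.0%). The list summed to 267 FPKM in untreated and 86.9 FPKM in treated wild-type BMDCs, to 239 and 73.7 FPKM in *Irf1*-/-, to 238 and 114 FPKM in *Irf3/7*-/- and to 286 and 280.5 FPKM in *Tmem173*-/- BMDCs. Their part in the *Tfrc* result was not tested, and no gene of the list was at 0.

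*Fth1* (chr19:9980600-9985111), the ferritin subunit that oxidises iron for storage, was the most abundant of the 10 transcripts per length. Wild-type BMDCs had 2311 FPKM untreated (1750.1 to 2870.5) and 10005 FPKM treated (6562 to 13456), a log2 change of 2.11. *Irf3/7*-/- BMDCs went from 2682 to 9216 FPKM (1.78). *Irf1*-/- BMDCs were at 1667 and 2864 FPKM of *Fth1*, with intervals apart and a difference of 0.78 below the threshold. Treated *Irf1*-/- BMDCs had 3.49-fold less *Fth1* than treated wild-type (log2 difference -1.80). *Tmem173*-/- BMDCs held 5749.6 FPKM untreated, 1.32 log2 units above untreated wild-type, and 4655 FPKM treated, below treated wild-type (log2 difference -1.10). The light chain gene *Ftl1*, whose 5′ UTR holds a hairpin at chr7:45459785-45459801 (minus strand), went from 4492 to 8173 FPKM in wild-type BMDCs and was not called (0.86).

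*Slc40a1* (chr1:45908070-45925594), the iron exporter ferroportin, was low throughout. It was at 1.30 FPKM (0.847 to 1.74) in untreated and 2.73 FPKM (1.95 to 3.51) in treated wild-type BMDCs, a log2 change of 1.02 that passed the threshold narrowly and did not pass it under a pseudocount of 1 FPKM (0.70) or a minimum of 5 FPKM. *Irf3/7*-/- BMDCs went from 1.41 to 8.14 FPKM (5.94 to 10.3), a log2 change of 2.45, and ended 1.54 log2 units above treated wild-type. *Tmem173*-/- BMDCs were at 5.73 and 6.54 FPKM with no call between them, above wild-type by 2.06 log2 units untreated and by 1.23 treated. *Irf1*-/- BMDCs were at 1.36 and 2.15 FPKM, with overlapping intervals. The 3 highest conditions, treated *Irf3/7*-/- and both of *Tmem173*-/-, were apart from the other 5.

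*Slc11a1* (chr1:74375203-74386051), the phagosomal metal transporter, was called with treatment in wild-type BMDCs alone, and also in *Irf3/7*-/- BMDCs where a 1.5-fold change was enough. It was at 6.42 FPKM untreated (4.63 to 8.22) and 23.6 FPKM treated (17.4 to 29.5), a log2 change of 1.86. *Irf1*-/- BMDCs were at 10.5 FPKM untreated and 7.35 FPKM treated, so that treated cells were 3.19-fold below treated wild-type (log2 difference -1.67). *Irf3/7*-/- BMDCs started at 23.3 FPKM, 1.84 log2 units above untreated wild-type, and were at 40.2 FPKM when treated, a difference of 0.78 with intervals apart. *Tmem173*-/- BMDCs were at 41.6 FPKM untreated, 2.68 log2 units above wild-type, and at 36.3 FPKM treated. The conditions fell into 2 sets in order of level, with untreated wild-type and both conditions of *Irf1*-/- apart from the other 5.

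The summed level of macrophage genes, 6 in the table of 7 listed, moved partly with *Slc11a1*, while the single genes went different ways. They summed to 120 FPKM in untreated and 306 FPKM in treated wild-type BMDCs, to 98.5 and 93.2 FPKM in *Irf1*-/-, to 99.7 and 175 FPKM in *Irf3/7*-/- and to 469 and 458 FPKM in *Tmem173*-/- BMDCs. In wild-type BMDCs *Cd14* (log2 change 3.28), *Mertk* (1.77) and *Fcgr1* (1.15) were called higher and *Mrc1* lower (-3.55), none of the list being at 0 (20.5% of all genes called). Most of the rise of the wild-type sum was *Cd14*, from 18.5 to 181 FPKM. In *Irf1*-/- BMDCs *Fcgr1* (2.68) and *Mertk* (1.23) were called higher and *Mrc1* lower (-2.89), while *Cd14* was not called (0.27), beside 17.5% of all genes. In *Irf3/7*-/- BMDCs *Cd14* (3.28) and *Mertk* (1.87) were called higher and *Mrc1* lower (-3.85). The part of macrophage and neutrophil transcripts in the levels of *Slc11a1*, *Slc40a1* and *Fth1* was not tested.

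*Slc11a2* (chr15:100387900-100423055), which carries ferrous iron out of the endosome, was called in 0 of the 10 comparisons. Its lowest value was 11.7 FPKM (8.42 to 15.2) in untreated wild-type BMDCs and its highest was 24.1 FPKM (18.2 to 29.9) in treated *Irf3/7*-/- BMDCs. The untreated *Irf3/7*-/- value was 14.2 FPKM (10.7 to 17.6), with intervals apart and a difference of 0.76 that was called where a 1.5-fold change was enough. Treated wild-type BMDCs were at 15.04 FPKM, a log2 change of 0.35, and the 4 values of *Tmem173*-/- and *Irf1*-/- BMDCs lay between 12.2 and 15.2 FPKM.

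**Figure D3:**
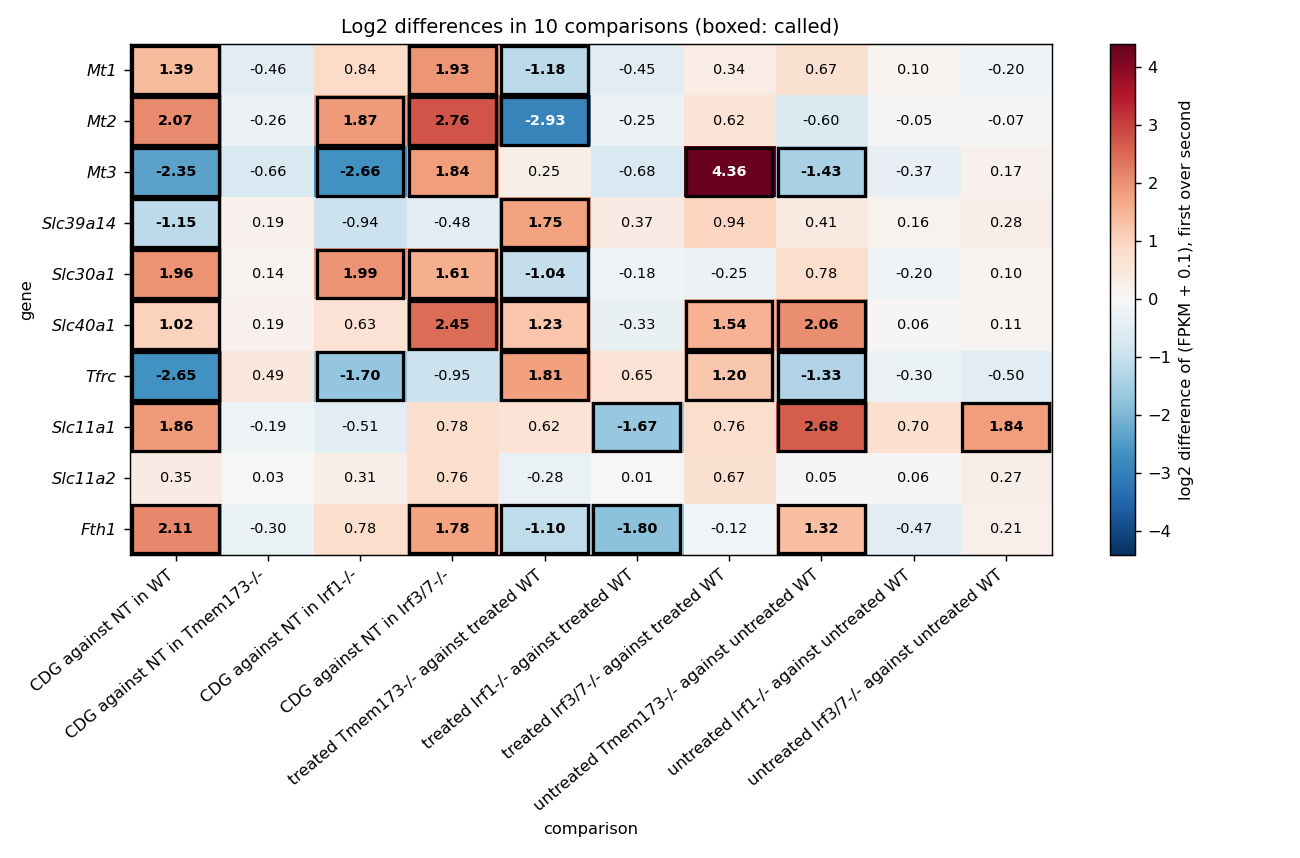
Log2 differences of FPKM + 0.1 for the 10 genes (rows) in 10 comparisons (columns; CDG is c-di-GMP, NT is untreated, WT is wild-type), red where the condition named first was higher, with called differences boxed. The column of *Tmem173*-/- treated against untreated and that of untreated *Irf1*-/- hold no box, and the first column holds 9.

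The 4 genotypes were next compared at the same treatment, to ask which of the changes differed without STING, IRF1 or IRF3 and IRF7. These comparisons share the wild-type samples, so they are not independent of each other or of the response in wild-type BMDCs. In treated *Tmem173*-/- against treated wild-type BMDCs, 7 of the 10 genes were called (26.3% of all genes), with *Mt1*, *Mt2*, *Slc30a1* and *Fth1* lower and *Slc39a14*, *Slc40a1* and *Tfrc* higher. In untreated *Tmem173*-/- against untreated wild-type BMDCs 5 were called (11.0% of all genes), with *Slc40a1*, *Slc11a1* and *Fth1* higher and *Mt3* and *Tfrc* lower. *Fth1* and *Tfrc* were called in opposite directions in the 2 comparisons.

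Within *Irf1*-/- BMDCs, c-di-GMP changed 4 of the 10 genes (17.5% of all genes), with *Mt2* and *Slc30a1* higher and *Mt3* and *Tfrc* lower. Only *Slc11a1* and *Fth1* were called between treated *Irf1*-/- and treated wild-type BMDCs, both lower, 2 of 10 beside 7.56% of all genes. Untreated *Irf1*-/- and wild-type BMDCs differed in 0 of the 10 genes (4.78% of all genes), with log2 differences from -0.47 for *Fth1* to 0.70 for *Slc11a1*.

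Within *Irf3/7*-/- BMDCs 6 of the 10 genes were called with c-di-GMP (17.9% of all genes), and each of *Mt1*, *Mt2*, *Mt3*, *Slc30a1*, *Slc40a1* and *Fth1* was higher. In treated *Irf3/7*-/- against treated wild-type BMDCs *Mt3*, *Slc40a1* and *Tfrc* were higher, 3 of 10 beside 7.30% of all genes. *Slc11a1* was the 1 gene called between untreated *Irf3/7*-/- and wild-type BMDCs (2.04% of all genes).

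The response in each knockout was then set against that in wild-type BMDCs as a difference of log2 changes, with an interval built from the 4 intervals of the authors and called when it excluded 0 and the difference was above 1. This called 8 of the 10 genes in *Tmem173*-/- BMDCs (21.7% of all genes). The difference was 3.14 (interval 2.41 to 3.87) for *Tfrc*, -2.42 (-3.25 to -1.59) for *Fth1* and -2.33 (-2.94 to -1.73) for *Mt2*. *Slc40a1* was not called at -0.83 (-1.61 to -0.05), and *Slc11a2* was not at -0.33 (-1.06 to 0.40). It called 2 of the 10 in *Irf1*-/- BMDCs (5.03% of all genes), *Slc11a1* at -2.38 (-3.15 to -1.61) and *Fth1* at -1.33 (-2.14 to -0.53). The metallothioneins were not, with *Mt1* at -0.55 (-1.14 to 0.05), *Mt2* at -0.20 (-0.77 to 0.37) and *Mt3* at -0.31 (-1.18 to 0.56), and these intervals allow differences of up to about the threshold. It called 4 of the 10 in *Irf3/7*-/- BMDCs (6.32% of all genes). *Mt3* differed by 4.19 (3.40 to 4.98), *Tfrc* by 1.70 (0.93 to 2.48) and *Slc40a1* by 1.43 (0.59 to 2.28), while *Slc11a1* differed by -1.08 (-1.84 to -0.33), a call that was lost with a pseudocount of 1 FPKM (-0.97).

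**Figure D4:**
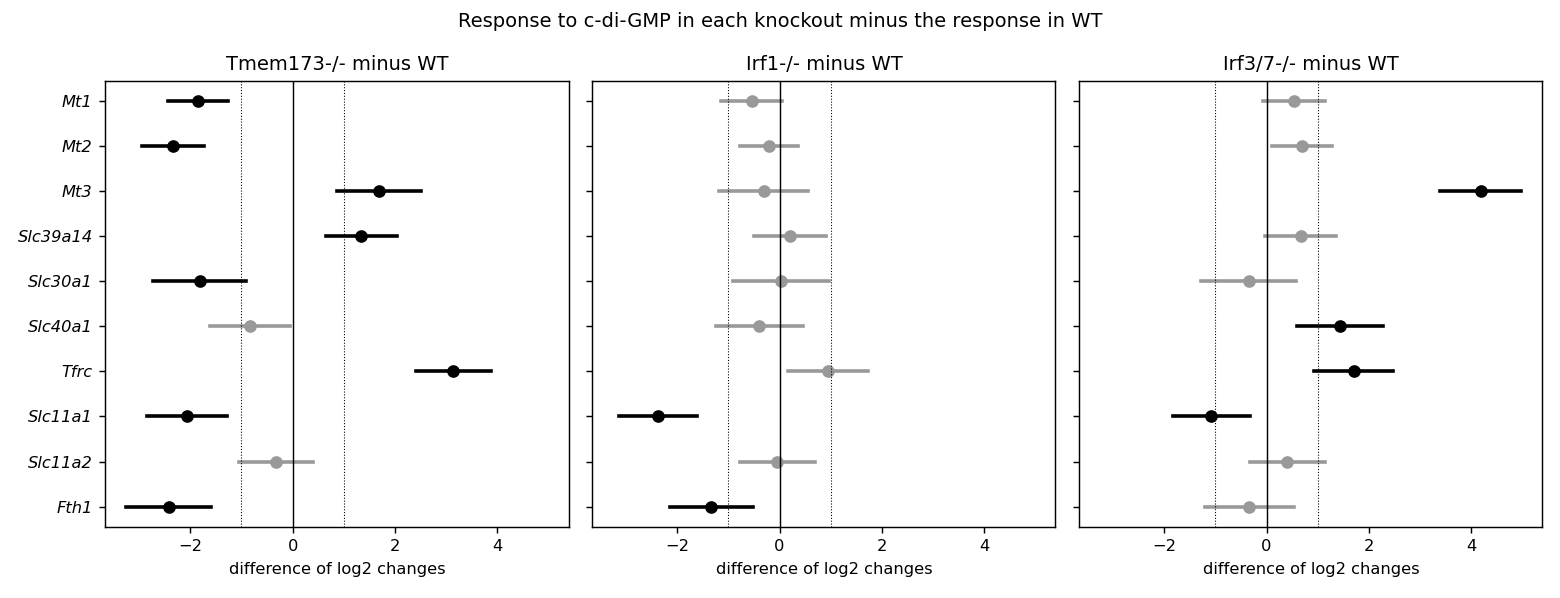
Difference of the log2 change with c-di-GMP in each knockout minus that in wild-type BMDCs for the 10 genes; points are the difference, bars its interval from the authors' bounds, black where called, and dotted lines mark 1 and -1. *Tfrc* at 3.14 in *Tmem173*-/- and *Mt3* at 4.19 in *Irf3/7*-/- lie farthest from 0 in their panels, and *Slc11a1* is below 0 and called in all 3, in *Irf3/7*-/- with the pseudocount of 0.1 FPKM plotted here but not with 1 FPKM.

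Further genes of zinc handling were read from lists of the pathway. Of 12 zinc importers of the ZIP family that passed the filter in wild-type BMDCs, 2 rose and 2 fell upon treatment (20.5% of all genes called), and the median log2 change was -0.02 beside 0.00 over all genes. *Slc39a2* (ZIP2) was at 1.19 FPKM untreated (0.733 to 1.64) and 27.8 FPKM treated (20.3 to 35.2), a rise of 4.44 log2 units, and its changes in *Irf1*-/- and *Irf3/7*-/- BMDCs were 4.59 and 3.83. *Slc39a8* (ZIP8), which also carries manganese, rose from 0.833 to 3.69 FPKM (2.02), with 8.25 FPKM in treated *Irf1*-/- and 1.32 FPKM in treated *Irf3/7*-/- BMDCs. *Slc39a10* (ZIP10) fell from 9.68 to 1.45 FPKM (-2.66) alongside *Slc39a14*. Of 6 zinc exporters of the ZnT family *Slc30a1* was the 1 called in wild-type BMDCs (20.5% of all genes). *Slc30a4* (ZnT4) was instead low in *Tmem173*-/- BMDCs, with log2 differences from wild-type of -3.003 untreated and -2.40 treated. *Mtf1*, which encodes the zinc-sensing factor itself, lay between 3.997 and 7.80 FPKM and was called in 0 of the 10 comparisons.

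Among 9 genes of iron uptake, reduction and scavenging, 3 rose and 3 fell in wild-type BMDCs (20.5% of all genes called), 3 of these 6 being members described above. *Steap3*, a reductase that prepares transferrin iron for export from the endosome, fell from 5.59 to 0.789 FPKM (log2 change -2.68) alongside *Tfrc*, and it fell in *Irf1*-/- (-2.09) and *Irf3/7*-/- (-2.55) BMDCs as well. *Lrp1*, a receptor for heme-bound hemopexin, rose from 10.2 to 28.4 FPKM (1.46). *Trf* (transferrin) was not called upon treatment of wild-type BMDCs (0.21) and was lower than wild-type in *Irf3/7*-/- BMDCs, with log2 differences of -1.16 untreated and -1.42 treated.

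Among 11 genes of iron storage, release and export, 3 rose in wild-type BMDCs and 0 fell (20.5% of all genes called), namely *Fth1*, *Slc40a1* and *Hmox1*. *Hmox1*, whose product degrades heme and frees its iron, rose from 85.9 to 423 FPKM (log2 change 2.30). *Irf1*-/- BMDCs were at 135 and 151 FPKM of *Hmox1* (0.17), and in *Irf3/7*-/- BMDCs it rose from 208 to 1074 FPKM (2.36). Against treated wild-type, the log2 difference of *Hmox1* was -1.88 in treated *Tmem173*-/- and -1.48 in treated *Irf1*-/- BMDCs, both of which were also lower for *Fth1*, and 1.34 in treated *Irf3/7*-/- BMDCs. Untreated *Irf3/7*-/- BMDCs were already above untreated wild-type (1.28). *Ncoa4*, *Pcbp1* and *Pcbp2*, which move iron out of and into ferritin, were not called (-0.14, -0.09 and -0.25).

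Of 7 regulators of iron that passed the filter, *Fbxl5*, part of the ligase that removes an iron regulatory protein when iron is plentiful, was the 1 called in wild-type BMDCs, from 15.7 to 32.4 FPKM (log2 change 1.04), where 20.5% of all genes were called. The iron regulatory protein genes *Aco1* (-0.05) and *Ireb2* (-0.09) were not called. In each comparison of *Tmem173*-/- with wild-type BMDCs 3 of the 7 were called (*Hfe*, *Nfe2l2* and *Hamp*), beside 11.0% of all genes untreated and 26.3% treated. *Hamp*, at 0.135 FPKM untreated and 0.177 FPKM treated in *Tmem173*-/- BMDCs, passed the filter only through its wild-type level. A call of *Hamp* could thus only be lower. *Hfe*, whose product binds the transferrin receptor, fell with c-di-GMP in *Irf1*-/- (-1.33) and *Irf3/7*-/- (-1.79) BMDCs and not in wild-type (-0.32). It differed from wild-type by -2.83 and -2.69 log2 units in untreated and treated *Tmem173*-/- BMDCs and by -1.71 in treated *Irf3/7*-/- BMDCs. *Nfe2l2*, which encodes the antioxidant factor NRF2, was higher in *Tmem173*-/- BMDCs, by 1.27 untreated and 1.30 treated. *Hamp*, which encodes the iron hormone hepcidin, was lower there (-2.90 and -2.45) at no more than 1.65 FPKM in wild-type. It was also called lower in untreated *Irf1*-/- BMDCs (-2.16), with the same limit, since it was at 0.292 FPKM there.

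Each of the 10 genes was finally set against the 7381 or 7382 other genes with at least 10 FPKM in one condition by Pearson's r of log2(FPKM + 0.1) over the 8 conditions. These conditions share genotypes and libraries, so r is a description. The genes closest to *Mt2* were *Stx11* (r = 0.996), *Cd70* (0.993) and *Rgs1* (0.993), and those closest to *Mt1* were *Glt8d1* (0.986), *Gla* (0.982) and *Rab4b* (0.980). *Mt3* was closest to *Lime1* (0.974), *Odc1* (0.970) and *Pgk1* (0.960). *Slc30a1* was closest to *Ikbkb* (0.981) and *Slc39a14* to *Parvb* (0.984). Among the iron genes *Fth1* was closest to *Tma16* (0.992), *Tfrc* to *Eif4b* (0.988), *Slc40a1* to *Tmem43* (0.983), *Slc11a2* to *Tollip* (0.976) and *Slc11a1* to *Blvrb* (0.962), whose product reduces biliverdin made from heme. Among the members *Mt1* and *Mt2* had r = 0.853, while *Mt3* had r = 0.02 with *Mt1* and 0.14 with *Mt2*. *Slc30a1* and *Tfrc* were nearly opposite (-0.93).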

How the data were processed

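The deposited table of the whole series was made by the authors with Cuffdiff (version 1.06 and mm9 in the submitters' processing notes, an earlier version in the study's methods), which combined the 2 samples of a condition into 1 FPKM with confidence bounds. Its positions matched GRCm38: 21283 of 21519 genes matched by symbol overlapped the RefSeq GRCm38.p6 gene (98.9%), and 1 was added to the starts. The libraries were stranded, and the methods give an opposing-strand setting for an analysis in Seqmonk. The strand setting used for the deposited FPKM, the aligner and the annotation are not given in the sources used here. Another 3 value columns of a further knockout were not used. Of 10 comparisons, 4 set treated against untreated BMDCs and 6 a knockout against wild-type. Genes were tested at 1 FPKM or more in one condition with the status OK in both, and called above 2-fold with intervals apart. The interval of a difference in response took each bound as 2 SD from the midpoint of the bounds, but was centred on the FPKM values. For *Mt1* and *Mt2* these values lie above the bounds. Depth cannot be read from FPKM. Alternatives were pseudocounts of 1 and 0.01 FPKM, no filter, a minimum of 5 FPKM, fold changes above 1.5 and 4, median centring, fold change alone, a z from the intervals with q under 0.05, and interval midpoints, the last added after seeing the data. The members, the 9 pathway lists and the 6 marker lists were chosen with earlier results of these data known. Genes named are the members, the targeted genes, up to 4 called genes per list and comparison with the largest change, listed genes that act on a member, neighbours of *Mt1*, and among the 3 genes most like each member. Matplotlib 3.10.9, scipy 1.17.1, pandas 2.3.3 and numpy 2.4.6 were run under python 3.11.15. A gene of the erythroid list is not reported here.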

Additional observations from a re-analysis of the deposited data

Results flagged for a closer look

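For 14 combinations of gene and knockout, the response to c-di-GMP differed from that in wild-type BMDCs by more than 1 log2 unit, with an interval that excluded 0. The interval comes from the authors' bounds and not from replicates, so the spread between cultures was not tested, and all 14 share the wild-type samples. In *Tmem173*-/- BMDCs the response was lower than in wild-type by log2 differences of -1.84 for *Mt1*, -2.33 for *Mt2*, -1.82 for *Slc30a1*, -2.06 for *Slc11a1* and -2.42 for *Fth1*. It was higher by 1.69 for *Mt3*, 1.34 for *Slc39a14* and 3.14 for *Tfrc*, all of which fell in wild-type BMDCs and had log2 changes without a call of -0.66, 0.19 and 0.49 in the knockout. In *Irf1*-/- BMDCs the response was lower by -2.38 for *Slc11a1* and -1.33 for *Fth1*. In *Irf3/7*-/- BMDCs the difference was 4.19 for *Mt3*, whose change was a fall in wild-type and a rise in the knockout, 1.43 for *Slc40a1*, 1.70 for *Tfrc* and -1.08 for *Slc11a1*, the last without a call at a pseudocount of 1 FPKM (-0.97). The untreated levels also differed from wild-type for *Slc11a1* in *Irf3/7*-/- BMDCs and for *Mt3*, *Slc40a1*, *Tfrc*, *Slc11a1* and *Fth1* in *Tmem173*-/- BMDCs, and the difference of responses includes these.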

How the results depend on the processing

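No paired analysis was possible because the deposited table holds 1 combined value per condition, and for the same reason no sample could be left out. Of 1120 recomputed values for the 10 genes, 1080 kept their side of the call, 32 lost the call and 8 gained it. Of the called values 0 changed direction, and changes of direction among values without a call were not counted. With a fold change above 4, the number of members called went from 9 to 4 with c-di-GMP in wild-type, from 4 to 1 in *Irf1*-/- and from 6 to 2 in *Irf3/7*-/- BMDCs. It went from 7 to 1 in treated *Tmem173*-/-, from 2 to 0 in treated *Irf1*-/- and from 3 to 1 in treated *Irf3/7*-/- against treated wild-type, and from 5 to 2 in untreated *Tmem173*-/- and from 1 to 0 in untreated *Irf3/7*-/- against untreated wild-type. With a fold change above 1.5 it went from 4 to 7 within *Irf1*-/-, from 6 to 9 within *Irf3/7*-/- (with *Tfrc*, *Slc11a1* and *Slc11a2* gained) and from 3 to 5 in treated *Irf3/7*-/- against wild-type. Over all genes, the calls with c-di-GMP in wild-type numbered 2291 of 11201 tested, with 592 above 4-fold and 3087 above 1.5-fold. Above 4-fold they numbered 589 of 11164 in *Irf1*-/- and 500 of 11283 in *Irf3/7*-/- BMDCs. Against wild-type, 1174 of 11318 were above 4-fold in treated *Tmem173*-/-, 232 of 11079 in treated *Irf1*-/- and 207 of 11209 in treated *Irf3/7*-/- BMDCs. The untreated counts were 422 of 11101 in *Tmem173*-/- and 36 of 11004 in *Irf3/7*-/- BMDCs. Above 1.5-fold, 2658 were called within *Irf1*-/-, 2807 within *Irf3/7*-/- and 1192 in treated *Irf3/7*-/- against wild-type. A pseudocount of 1 FPKM also ended the call of *Slc30a1* in treated *Tmem173*-/- against wild-type (-0.89) and of the *Slc11a1* response in *Irf3/7*-/- (-0.97). The median log2 change of all genes tested was at most 0.02 from 0. The number of reads is unknown, and the 2 samples of a condition cannot be compared.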

Other observations

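Genes of mitochondrial iron, heme and iron-sulfur cluster assembly changed in both directions. Of 16 that passed the filter in wild-type BMDCs, 4 rose and 1 fell with c-di-GMP (20.5% of all genes were called), and the median log2 change was -0.04. *Cpox*, an enzyme of heme synthesis, rose from 17.1 to 55.1 FPKM (log2 change 1.68) in wild-type and rose in *Irf1*-/- BMDCs (1.88), and treated *Irf3/7*-/- BMDCs were below treated wild-type (log2 difference -1.31). *Slc25a37*, which encodes the mitochondrial iron importer mitoferrin, rose from 3.48 to 11.3 FPKM (1.68), and treated *Irf1*-/- BMDCs, at 2.62 FPKM, were lower than treated wild-type (-2.07). *Alas1*, the first enzyme of heme synthesis, rose from 128 to 279 FPKM (1.12), and *Iscu*, the scaffold for iron-sulfur clusters, from 84.3 to 186 FPKM (1.14). *Abcb10*, a mitochondrial transporter, fell from 6.62 to 2.70 FPKM (-1.26).

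Of 7 copper genes, 2 rose in wild-type BMDCs and 0 fell (20.5% of all genes were called). *Sco1*, which delivers copper to cytochrome c oxidase, rose from 5.82 to 16.5 FPKM (log2 change 1.49), by 1.69 in *Irf1*-/- and by 1.08 in *Irf3/7*-/- BMDCs. *Slc31a2*, a copper transporter, rose from 48.9 to 98.7 FPKM (1.01). In treated *Tmem173*-/- against treated wild-type BMDCs 4 of the 7 were lower (26.3% of all genes were called), with *Sco1* at -2.14. *Cp*, the ferroxidase ceruloplasmin, differed in *Irf1*-/- from wild-type BMDCs by -3.34 log2 units without treatment and by -1.93 with it, and in *Tmem173*-/- BMDCs by -2.05 and -2.64. It rose with c-di-GMP in *Irf1*-/- (2.28) and *Irf3/7*-/- (1.13) BMDCs.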
